A study of Mus musculus with 8 samples.

Results

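Bead-carrying and bead-free blood monocytes were compared here for 1 question: whether the expression difference that goes with beads is the same in classical (Gr1hi) and nonclassical (Gr1lo) cells. The quantity described is the bead difference of Gr1lo cells (with minus without beads) minus the bead difference of Gr1hi cells, on the log2 scale, called the subset contrast below. All 8 arrays of the series entered it, and it was computed for 18193 of 18193 genes that had a probe set with 1 gene symbol, each represented by its brightest probe set. Genes were then sorted by whether their bead difference was shared, present in 1 subset, or opposite in sign.

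The samples were RNA of blood monocytes from male C57BL/6 mice that had received green fluorescent latex microspheres, 1 µm across, by intravenous injection. Cells were sorted 4 days later on subset and on the presence of beads, giving Gr1hi with beads, Gr1hi without beads, Gr1lo with beads and Gr1lo without beads, 2 biological replicates each. Bead-free cells came, per the series text, from injected mice as well. The descriptions disagree on clodronate liposomes, which kill phagocytes: the series text places them 3 days before the beads for both subsets, whereas the treatment protocol uses them for labelling the classical cells only. Under the second reading subset and pretreatment cannot be told apart in the subset contrast. How many mice went into an array is not given in the sources used here.

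Classical monocytes leave the bone marrow with high Gr1 (Ly-6C) and enter inflamed tissue, where they can become macrophages or dendritic cells. Nonclassical monocytes are their longer-lived relatives that patrol the vessel wall, and many arise from classical cells in the blood under control of the nuclear receptor Nr4a1. Latex beads cannot be digested, so a cell that has engulfed one stays marked by it, and the particle sits in a phagosome that fuses with lysosomes. Sorting on beads therefore separates cells that had taken up a particle, or descend from such a cell, from cells that had not.

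The subset labels were borne out by the defining genes. The nonclassical genes Nr4a1 (13.35 to 13.56 on Gr1lo arrays, 11.16 to 11.36 on Gr1hi arrays) and Treml4 (12.90 to 13.08 against 8.37 to 9.08) were higher on every Gr1lo array, and the classical chemokine receptor Ccr2 was higher on every Gr1hi array (11.83 to 12.33 against 10.59 to 11.71). Levels here and below are log2 expression. Array medians lay between 6.12 and 6.19, and 8615 to 8865 genes per array exceeded 6.98, a background level set from genes such as olfactory receptors. A value under that level was not told apart from background, so the size of a difference that starts or ends there describes array values rather than RNA. With 2 arrays a group, precision was limited by the number of arrays.

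Few genes were called for a bead difference that differed between the subsets. With 2 arrays a group, few calls do not show that few genes differed. In limma, 8 of 18193 genes (0.044%) had a subset contrast with an adjusted p under 0.05, 2 of them higher in Gr1lo (0.011%) and 6 lower (0.033%). The lower ones were Cd209a, F13a1, Klrd1, Chil3, Vcan and Fabp5, and the higher ones were Slc40a1 and Ms4a2. At an unadjusted p under 0.05 there were 1427 genes (7.84%), 824 higher (4.53%) and 603 lower (3.31%). The count of 8 became 1 without Gr1hi array 1 without beads, 3 and 4 without Gr1hi arrays 1 and 2 with beads, and 167 without Gr1lo array 2 without beads, and was 6 or 7 without each of the other arrays.

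**Figure D1:**
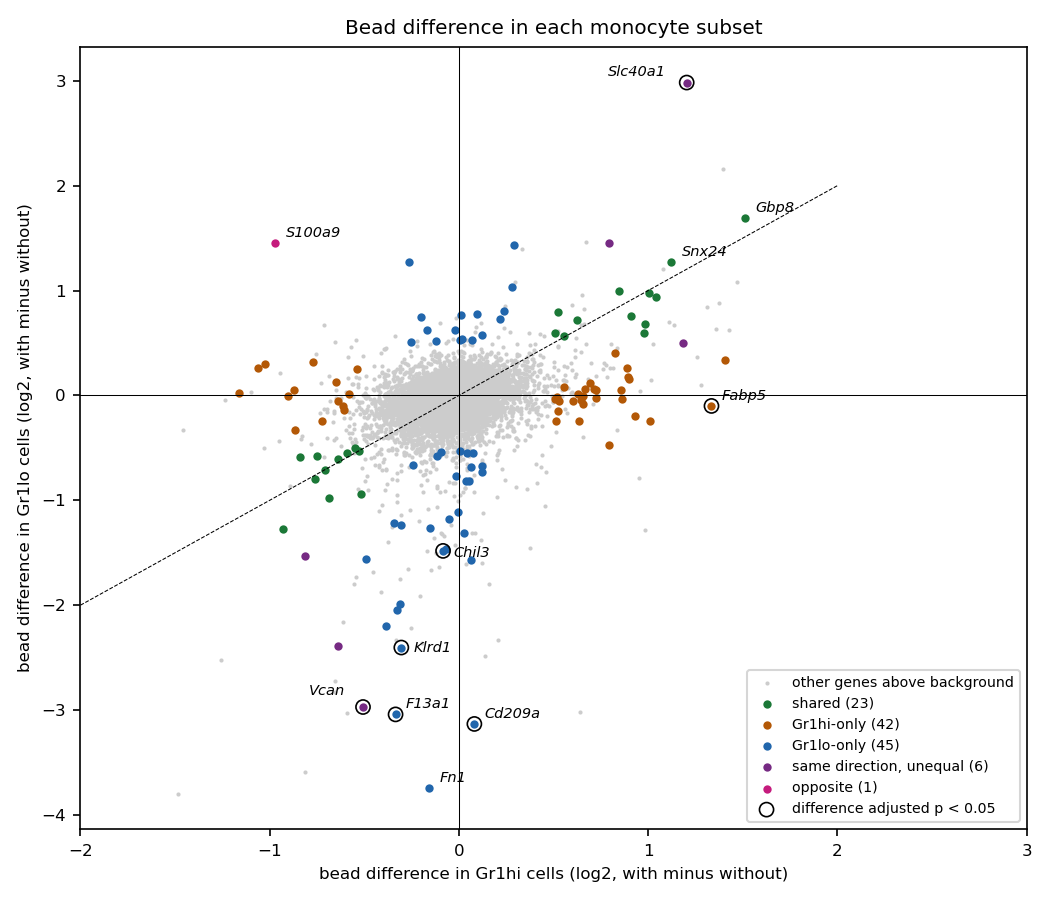
Bead difference (log2, with minus without beads) in Gr1hi cells on the horizontal axis and in Gr1lo cells on the vertical axis, 1 point per gene above background in at least 1 group, with the line of equal differences dashed. Colours give the pattern (shared by the tested sort, the others by unadjusted p under 0.01) and circles the called subset contrasts, of which Ms4a2 is not drawn because it was below background in all groups.

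The most negative called contrasts came with losses seen in Gr1lo cells. Cd209a, a C-type lectin of monocyte-derived dendritic cells, was at 10.07 and 9.73 in Gr1lo cells without beads and at 6.84 and 6.69 with beads. In Gr1hi cells it was at 6.46 and 6.35 without and 6.52 and 6.45 with beads, so that the bead-free Gr1lo arrays were the only ones above background. It fell with beads by 3.13 ± 0.12 (SE) in Gr1lo cells, differed by 0.08 ± 0.12 in Gr1hi cells, and had a subset contrast of -3.21 ± 0.17 (limma adjusted p = 0.000646). In bulk samples such as these, fewer cells of a type and less RNA per cell cannot be told apart.

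F13a1, the catalytic chain of coagulation factor XIII and a marker of classical monocytes, was at 10.61 and 10.17 in bead-free Gr1lo cells and at 7.46 and 7.24 in bead-carrying ones. The Gr1hi arrays all lay higher, at 13.58 and 13.51 without and 13.15 and 13.27 with beads. With beads it fell by 3.04 ± 0.15 in Gr1lo cells and differed by -0.34 ± 0.15 in Gr1hi cells, a subset contrast of -2.71 ± 0.21 (adjusted p = 0.00443). Beads thus went with a wider gap between the subsets: F13a1 was lower in Gr1lo than in Gr1hi cells on all arrays, and more so among cells with beads.

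Chil3, a secreted chitinase-like protein of myeloid cells, showed the same arrangement at a higher level. It was at 13.18 and 13.26 in Gr1lo cells without and 11.72 and 11.76 with beads, against 14.05 and 14.03 without and 13.98 and 13.94 with beads in Gr1hi cells. Its subset contrast was -1.40 ± 0.11 (adjusted p = 0.00443), and all Gr1hi arrays lay between 13.94 and 14.05.

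Klrd1 encodes CD94, a receptor chain of natural killer cells that some dendritic cells also carry. It was at 7.55 and 7.80 in Gr1lo cells without beads, the only group above background, and at 5.26 and 5.28 with beads. Gr1hi cells were at 6.14 and 6.12 without and 5.96 and 5.68 with beads, and the subset contrast was -2.10 ± 0.17 (adjusted p = 0.00443). None of the other NK cell markers was called in either subset or for the contrast. Among them Klrk1 differed by -1.01 ± 0.17 in Gr1lo cells (limma adjusted p = 0.0781) and by -0.33 ± 0.17 in Gr1hi cells. Of the 14 measured NK cell markers, 7 had a subset contrast above 0, and the median was 0.015. Their mean lay at 5.90 to 5.91 on bead-free Gr1lo arrays and at 5.63 to 5.80 on all others. That mean includes Klrd1, so it says nothing separate about the other markers.

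Vcan, a matrix proteoglycan that classical monocytes make, fell in Gr1lo cells and differed in the same direction in Gr1hi cells. It was at 8.10 and 7.58 in Gr1lo cells without beads and at 4.85 and 4.89 with beads. In Gr1hi cells it was at 11.98 and 12.14 without and 11.51 and 11.60 with beads. The differences were -2.97 ± 0.15 and -0.51 ± 0.15, a subset contrast of -2.46 ± 0.22 (adjusted p = 0.00778). Bead-carrying Gr1lo cells lay below background, so the size of the fall is measured down to values not above it. Its 8 probe sets disagreed: averaged over them the subset contrast of Vcan was -0.25 and was not called (adjusted p = 0.648).

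Fabp5, a carrier of fatty acids inside the cell, moved in Gr1hi cells instead. It was at 12.55 and 12.54 in Gr1hi cells with beads and at 11.24 and 11.19 without, while all Gr1lo arrays lay at 10.43 to 10.75. The rise of 1.33 ± 0.11 in Gr1hi cells stood against a difference of -0.10 ± 0.11 in Gr1lo cells, a subset contrast of -1.44 ± 0.15 (adjusted p = 0.0253).

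Slc40a1 encodes ferroportin, the exporter through which macrophages return iron from digested red cells. Its values rose in both subsets, from below background in Gr1lo cells. It was at 7.78 and 7.98 in Gr1hi cells without and 9.11 and 9.06 with beads, and at 6.24 and 6.39 in Gr1lo cells without and 9.51 and 9.08 with beads. With beads the subsets overlapped, whereas without beads every Gr1hi array lay above every Gr1lo array. The rises were 1.20 ± 0.14 and 2.98 ± 0.14, a subset contrast of 1.78 ± 0.20 (adjusted p = 0.0347), and the second rise and the contrast rest on bead-free Gr1lo values not above background.

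Ms4a2, the beta chain of the high-affinity IgE receptor of mast cells and basophils, was below background in all 4 groups. It was at 6.66 and 6.54 in Gr1hi cells without beads and between 5.57 and 5.81 on the other 6 arrays, with a subset contrast of 1.14 ± 0.13 (adjusted p = 0.0347). Other basophil genes had the same order: Mcpt8 was at 6.87 and 6.55 in bead-free Gr1hi cells and at 5.40 to 5.68 elsewhere, and Cpa3 at 6.44 and 6.31 against 5.55 to 5.75. Of 15 eosinophil and basophil markers, 2 were above background in any group. In the whole list 3 were called lower with beads in Gr1hi cells (0.0989% of all genes) and 13 had a subset contrast above 0 (56.4% of all genes). The list's mean was 5.59 to 5.87 on bead-free Gr1hi arrays and 5.20 to 5.54 on all others. The part of basophils in these values was not tested.

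**Figure D2:**
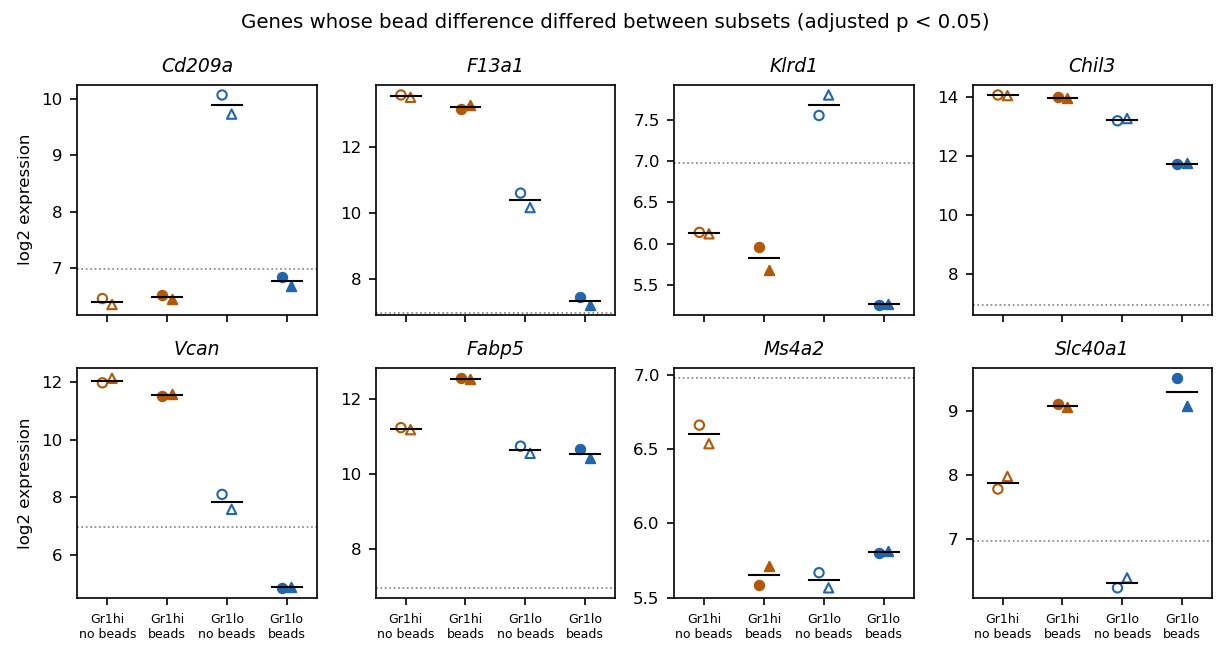
Log2 expression of the 8 genes with a called subset contrast on each array (circles replicate 1, triangles replicate 2, bars group means, filled symbols with beads), with the background level dotted. Cd209a, Klrd1 and F13a1 fall in Gr1lo cells with beads, Fabp5 rises in Gr1hi cells with beads, and Slc40a1 rises in both subsets.

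The calls depended on the processing to different degrees. Over 16 alternatives, the subset contrast of Cd209a was called in 16, that of F13a1 and Klrd1 in 15, Chil3 in 14, Vcan and Fabp5 in 10, Slc40a1 in 6 and Ms4a2 in 3 of 15. The sign of these contrasts was the same in every one of them. The control probe sets differed with beads too: the poly-A controls, bacterial transcripts added during labelling, were higher with beads by 1.73 in Gr1hi and 1.47 in Gr1lo cells, and the hybridization controls by 0.20 and 1.07. The subset contrasts of these controls were -0.26 and 0.88, against a pooled SD between arrays of a group of 0.28 and 0.17, and that of the 18S RNA probe sets was 0.91 with a pooled SD of 0.62. Whether these contrasts differ from 0 was not tested. The hybridization controls had the larger bead difference in Gr1lo cells, where their arrays also varied more. Their SD between arrays was 0.22 without and 0.24 with beads in Gr1lo cells, against 0.077 and 0.0033 in Gr1hi cells. Their part in the gene values was not tested.

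A call in 1 subset alone was not by itself a difference between subsets. In limma 45 genes were called for the bead difference in Gr1hi cells (0.247%; 27 higher, 0.148%, and 18 lower, 0.0989%). In Gr1lo cells 41 were called (0.225%; 15 higher, 0.0824%, and 26 lower, 0.143%). Of these, Gbp8, Gpnmb, Ndrg1, Slc40a1, Snx24 and Spic, 6 in all, were called in both, with the same sign. Of the 39 called in Gr1hi cells alone, the subset contrast was called for 2 and had an unadjusted p of 0.05 or more for 5, among them the lipid-sensing receptor Nr1h3 and the cytoskeletal protein Basp1. Of the 35 called in Gr1lo cells alone, it was called for 5 and had an unadjusted p of 0.05 or more for 6, among them the transcriptional inhibitor Id3, the membrane protease Mmp14 and the lectin Clec4n.

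Across the 9314 genes above background in at least 1 group, the bead differences of the subsets had the same sign in 61.6% and a Pearson correlation of 0.31 (Spearman 0.29). Over all 18193 genes the same sign was seen in 57.6% and the correlation was 0.27. These figures describe genes of the same 8 arrays, which are not independent replicates.

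By the tested sort, 26 genes (0.143%) were shared, 2 (0.011%) were Gr1hi-only, 4 (0.022%) were Gr1lo-only, 2 (0.011%) were unequal in the same direction, and 0 were opposite. A gene counted as shared if its bead difference averaged over the subsets was called, both subsets differed by at least 0.5 in the same direction, and its subset contrast had an unadjusted p of at least 0.05. The other patterns needed a called subset contrast and the same size limit of 0.5. Fabp5 and Ms4a2 were Gr1hi-only, Cd209a, F13a1, Klrd1 and Chil3 were Gr1lo-only, and Vcan and Slc40a1 were unequal. For opposite bead differences limma gave 1 gene at an unadjusted p under 0.01, S100a9. So few genes passed that the sort was also made at an unadjusted p under 0.01, which describes the arrays and is no list of calls. It gave 55 Gr1hi-only genes (0.302%), 50 Gr1lo-only genes (0.275%), 7 unequal genes (0.0385%) and 1 opposite gene (0.0055%), while 1.76% of all genes had a subset contrast at that p.

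The Gr1lo-only genes were mostly lower with beads, 32 of 50, and 27 of these 32 were lower in Gr1lo than in Gr1hi cells among cells without beads. The same held for 13 of the 14 shared genes that were lower with beads, so it does not set the Gr1lo-only genes apart from these. It also held for 17 of the 24 such Gr1hi-only genes. The share was 63.8% over all genes and 55.7% over genes above background in at least 1 group. Several are proteases and granule or surface proteins of classical monocytes and neutrophils. The neutrophil marker list itself went the other way, with a median subset contrast of 0.25 and 14 of 20 contrasts above 0. The collagenase Mmp8 was at 8.52 and 7.57 in Gr1lo cells without and 5.99 and 5.70 with beads, and its bead difference there was -2.20 ± 0.25 (adjusted p = 0.0163). In Gr1hi cells it differed by -0.38 ± 0.25, and its subset contrast, -1.81 ± 0.36, was not called (adjusted p = 0.393). The neutrophil surface protein Cd177 fell by 1.99 ± 0.29 in Gr1lo cells (adjusted p = 0.0497), with a subset contrast of -1.68 ± 0.42 (adjusted p = 0.492). Bead-carrying Gr1lo arrays lay below background for both Mmp8 and Cd177.

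Bex6, a small protein best known from neural tissue, was at 7.04 and 7.10 in Gr1lo cells without and 5.39 and 4.66 with beads, while all Gr1hi arrays lay at 8.07 to 8.55. It fell by 2.05 ± 0.21 in Gr1lo cells, to values below background, and its subset contrast was -1.72 ± 0.30 (adjusted p = 0.258). The sheddase Adam8 differed by -1.57 ± 0.31 in Gr1lo and 0.06 ± 0.31 in Gr1hi cells, with neither bead difference called. Its bead-carrying Gr1lo arrays lay below background, at 5.81 and 6.17. Its bead-free Gr1lo arrays lay apart, at 8.17 and 6.97, and its subset contrast of -1.64 was -1.03 without array 1 of that group and -2.24 without array 2. Adamdec1, a secreted metalloprotease of macrophages, went the other way: it rose in Gr1lo cells by 1.28 ± 0.17, from 8.66 and 9.24 to 10.21 and 10.25, and lay below background on all Gr1hi arrays (5.49 to 5.88). Its subset contrast of 1.54 ± 0.24 had an adjusted p of 0.173.

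The matrix protein Fn1 had the most negative subset contrast of the Gr1lo-only genes, -3.59 ± 0.95, and was not called (adjusted p = 0.52). It was at 13.63 and 10.87 on the bead-free Gr1lo arrays and at 8.49 and 8.53 with beads, and Gr1hi arrays lay at 13.59 to 13.81. Both bead-free Gr1lo arrays lay above both bead-carrying ones, but they differed from each other by more than 2 log2 units. Without array 1 of that group the subset contrast of Fn1 was -2.21 (adjusted p = 0.00157), and without array 2 it was -4.97 (adjusted p = 5.32e-06).

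The Gr1hi-only genes were divided between higher (31) and lower (24). Transglutaminase Tgm2 was at 8.54 and 9.03 in Gr1hi cells without and 10.14 and 10.25 with beads, a rise of 1.41 ± 0.15 (adjusted p = 0.0177). In Gr1lo cells Tgm2 was at 13.10 and 13.08 without and 13.50 and 13.35 with beads, a difference of 0.34 ± 0.15. Its subset contrast was -1.07 ± 0.21 (adjusted p = 0.393). Cd28, known as the costimulatory receptor of T cells, rose by 0.93 ± 0.11 in Gr1hi cells. It went from 6.35 and 6.41, below background, to 7.45 and 7.18, and was below background on all Gr1lo arrays too (5.44 to 5.74). The subset contrast of Cd28 was -1.13 ± 0.15 (adjusted p = 0.0974). The mean of the 17 measured T cell markers lay at 6.26 to 6.27 on bead-free and 6.39 to 6.40 on bead-carrying Gr1hi arrays, and the T cell receptor chain Cd3e at 7.27 to 7.43 on all Gr1hi arrays; the part of T cells was not tested.

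Among the Gr1hi-only genes that were lower with beads, Mpo, the myeloperoxidase of immature granules, was at 7.14 and 7.38 without and 6.14 and 6.07 with beads in Gr1hi cells. It fell by 1.16 ± 0.12 there, to values below background, and all Gr1lo arrays were below background too, at 5.81 to 6.06. The antiviral membrane protein Ifitm1 fell by 0.77 ± 0.11 in Gr1hi cells and differed by 0.32 ± 0.11 in Gr1lo cells, with a subset contrast of 1.09 ± 0.15 (adjusted p = 0.104). H2-T24, a nonclassical class I molecule, fell by 0.87 ± 0.11 in Gr1hi cells, to 6.56 and 6.38, below background. It lay at 7.46 to 7.72 on all Gr1lo arrays. The coatomer subunit Copg2 and the early endosome GTPase Rab5c differed by -1.03 ± 0.27 and -1.06 ± 0.22 in Gr1hi cells, neither of them called. In both genes the bead-free Gr1hi arrays stood apart, at 9.25 and 8.33 for Copg2 and 10.80 and 10.01 for Rab5c. The cytoskeletal linker Gas2l3 and the stress-inducible Zfand2a differed by 0.79 ± 0.20 and 1.01 ± 0.25 in Gr1hi cells, and were not called either.

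Of 27 measured nonclassical markers, 4 were called higher with beads in Gr1hi cells (0.148% of all genes) and 0 lower. Their median bead difference there was 0.12, with 17 above 0, and limma gave 8 higher and 3 lower at an unadjusted p under 0.05. The 3 lower ones were the fractalkine receptor Cx3cr1 (-0.38), the transcription factor Ikzf3 (-0.54) and the sphingosine phosphate receptor S1pr5 (-0.34), none of them called, and Ikzf3 and S1pr5 lay below background on all Gr1hi arrays. The called genes were Pparg, a lipid-sensing nuclear receptor, at 1.14 ± 0.14, and 3 that were sorted as Gr1hi-only. Adgre4, an adhesion receptor, rose by 0.90 ± 0.10 in Gr1hi cells, Eno3, the muscle enolase, by 0.86 ± 0.12, and Treml4 by 0.67 ± 0.09 (adjusted p = 0.0211, 0.0347 and 0.0347). In Gr1lo cells the same genes differed by 0.15, 0.05 and 0.06, at levels of 13.52 to 13.78 for Adgre4, 12.32 to 12.66 for Eno3 and 12.90 to 13.08 for Treml4. Their subset contrasts, -0.75, -0.81 and -0.61, were not called (adjusted p = 0.33, 0.421 and 0.439). Bead-carrying Gr1hi cells stayed well below all Gr1lo arrays in these genes, at 10.81 to 10.83, 8.28 to 8.32 and 9.05 to 9.08.

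**Figure D3:**
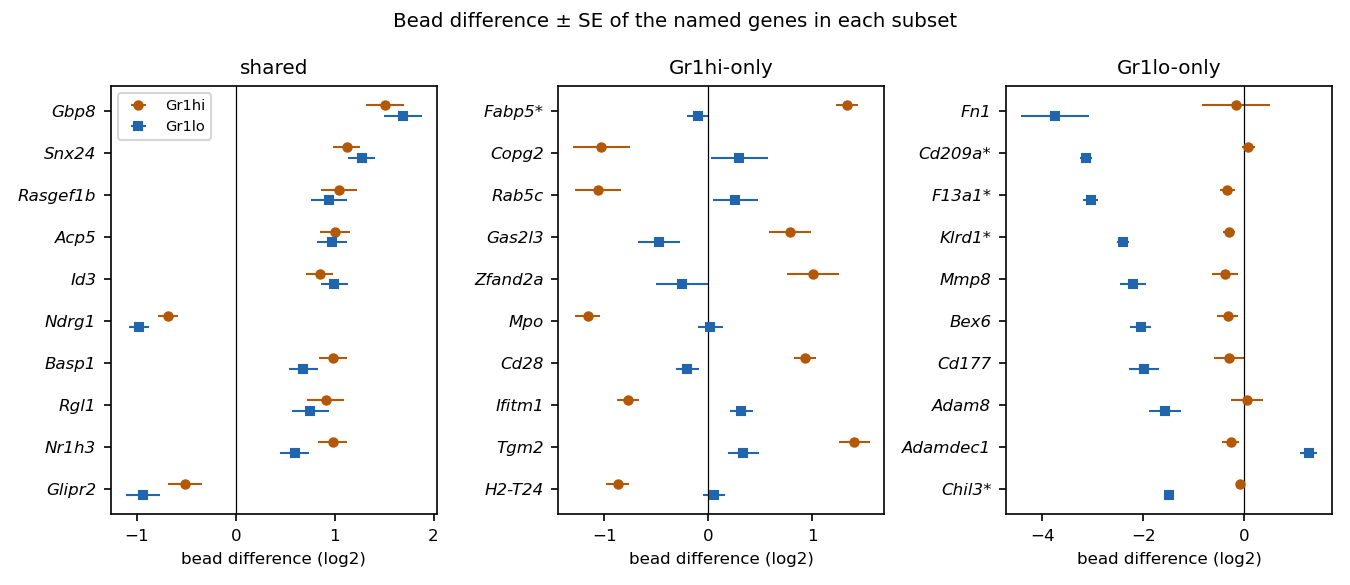
Bead difference ± SE (log2, with minus without beads) of up to 10 named genes per pattern, in Gr1hi cells (circles) and Gr1lo cells (squares), with a star for a called subset contrast. The shared genes have both symbols on the same side of 0, and in the other panels the symbols part.

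Genes unequal in the same direction included, beside Slc40a1 and Vcan, the growth factor Igf1, the mannose 6-phosphate receptor Igf2r, the potassium channel subunit Kcne3 and the small GTPase Rnd3. Igf1 was at 6.36 and 6.32 in Gr1lo cells without and 7.92 and 7.67 with beads, and at 6.73 and 6.42 without and 7.50 and 7.23 with beads in Gr1hi cells. Its differences were 1.46 ± 0.14 and 0.79 ± 0.14, with the first called and the second not (adjusted p = 0.00698 and 0.0872). All 4 bead-free arrays lay below background for Igf1, so neither size is measured from a level above it. Igf2r had the reverse order, 1.19 ± 0.11 in Gr1hi and 0.50 ± 0.11 in Gr1lo cells. Both bead-free Gr1hi arrays lay below background for Igf2r, at 6.10 and 6.03. Rnd3 fell by 1.53 ± 0.15 in Gr1lo cells and differed by -0.81 ± 0.15 in Gr1hi cells. The subset contrasts of Igf1, Igf2r and Rnd3 were 0.66, -0.69 and -0.72, none of them called.

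Of the shared genes, 12 were higher and 14 lower with beads, and 23 of 26 were above background in at least 1 group. They included the lysosomal enzyme Acp5 and the lipid-sensing receptor Nr1h3. Gbp8, an interferon-inducible guanylate-binding protein, was at 4.26 and 4.70 in Gr1hi cells without and 5.92 and 6.07 with beads, all below background. In Gr1lo cells it was at 6.50 and 6.39 without and 8.41 and 7.85 with beads. The averaged rise was 1.60 ± 0.14 (adjusted p = 0.00245) and the subset contrast 0.18 ± 0.27.

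Snx24, a sorting nexin of endosomal membranes, rose on average by 1.20 ± 0.09 (adjusted p = 0.00166). It was at 7.53 and 7.56 in Gr1hi cells without and 8.62 and 8.71 with beads, and at 5.72 and 5.79 against 7.24 and 6.81 in Gr1lo cells. The bead-free Gr1lo arrays lay below background for Snx24. Acp5, the tartrate-resistant acid phosphatase of lysosomes, was at 8.19 and 8.48 in Gr1hi cells without and 9.12 and 9.55 with beads. In Gr1lo cells it was at 10.25 and 10.38 without and 11.35 and 11.23 with beads. Its bead differences of 1.00 ± 0.15 and 0.97 ± 0.15 were each not called alone (adjusted p = 0.0538 and 0.0677), while their average was (adjusted p = 0.00817).

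Id3, an inhibitor of helix-loop-helix transcription factors, was between 8.09 and 8.43 on the 4 bead-free arrays and between 8.95 and 9.54 on the 4 bead-carrying ones. Bead state separated the arrays of Id3 completely, and the subset did not. Nr1h3, the oxysterol receptor LXR-alpha, rose on average by 0.79 ± 0.10 (adjusted p = 0.0186). It went from 6.72 and 6.75, below background, to 7.63 and 7.81 in Gr1hi cells. In Gr1lo cells it went from 8.15 and 7.99 to 8.89 and 8.44. Ndrg1, a stress- and hypoxia-responsive gene, fell in both subsets. It went from 10.55 and 10.50 to 9.89 and 9.79 in Gr1hi cells and from 8.70 and 8.62 to 7.79 and 7.56 in Gr1lo cells, an average of -0.83 ± 0.07 (adjusted p = 0.00232). Rasgef1b, an exchange factor for Ras-type GTPases, rose on average by 0.99 ± 0.13, Basp1 by 0.83 ± 0.10 and the Ral exchange factor Rgl1 by 0.83 ± 0.13. Both bead-free group means lay below background for Rasgef1b and Rgl1, as did the bead-free Gr1lo arrays for Basp1. For Rgl1 the bead-carrying Gr1lo mean lay below background too. Glipr2 fell by 0.73 ± 0.12 on average, with a difference of -0.52 in Gr1hi and -0.94 in Gr1lo cells. Over the 16 alternatives the averaged difference was called in 12 for Rasgef1b, Basp1 and Nr1h3 and in 9 for Rgl1 and Glipr2. It was called in all 16 for Gbp8, Snx24, Acp5, Id3 and Ndrg1.

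**Figure D4:**
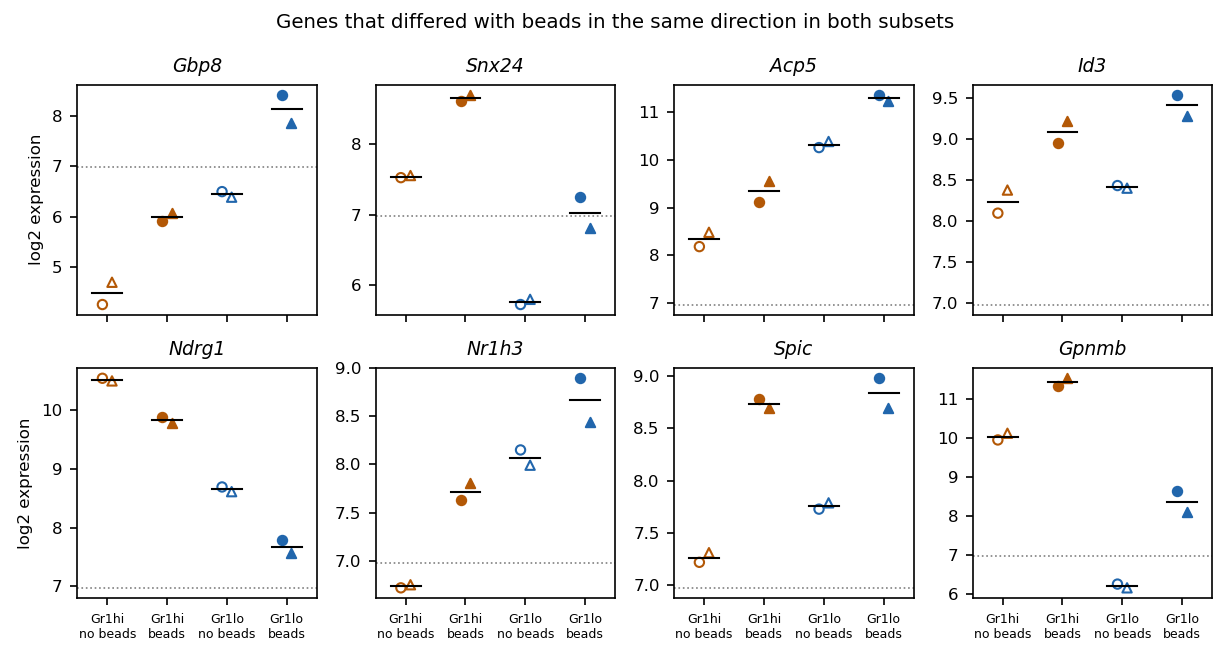
Log2 expression of 8 genes called in the same direction on average over both subsets, on each array (circles replicate 1, triangles replicate 2, bars group means, filled symbols with beads), with the background level dotted. Spic and Gpnmb are drawn beside 6 shared genes because they were called in both subsets, though their subset contrasts had an unadjusted p under 0.05.

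A shared direction was not equality. Spic, a transcription factor that red pulp macrophages need for recycling iron, was called in both subsets, at 1.47 ± 0.11 in Gr1hi and 1.08 ± 0.11 in Gr1lo cells, and Gpnmb, a glycoprotein of lysosome-rich macrophages, at 1.39 ± 0.17 and 2.16 ± 0.17. Their subset contrasts, -0.39 ± 0.15 and 0.77 ± 0.24, were not called in limma (adjusted p = 0.608 and 0.558). Their unadjusted p of 0.032 and 0.0109 kept them out of the shared group. Gpnmb lay below background on both bead-free Gr1lo arrays. Of the 139 genes whose averaged bead difference was called (0.764%), 132 had the same sign in both subsets and 7 opposite signs. Of these 132, 38 differed by at least 0.5 in both subsets and 94 by less in 1 or both.

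The promoters of shared genes are shown because these genes moved together in both subsets. RefSeq (GRCm38.p6) lists a promoter for 20 of the 26, and the 250 bases before each listed start were searched on both strands. A gene with several listed starts counted as holding a motif if any of them did. CATGTG, an E-box form that lysosomal MiT/TFE factors and other helix-loop-helix factors can bind, occurred in 6 of 20 (30%) against 1508 of 14452 promoters of all genes tested (10.4%). It was present in 5 of 36 promoters of Gr1lo-only genes (13.9%) and 5 of 42 of Gr1hi-only genes (11.9%). CACGTG, the palindromic E-box, was present in 1 of 20 shared promoters (5%) against 8.73% of all, TGACNNNGC, the antioxidant response core, in 2 (10%) against 13.5%, and GAGGAAGT, an ETS core, in 1 (5%) against 2.8%. These are matches of letters, not binding sites. The 4 holders of CATGTG that rose were Acp5 (chr9:22130599-22130848), Cd9 (chr6:125494761-125495010), Rasgef1b (chr5:99252928-99253177) and Rgl1 (chr1:152625218-152625467), all on the minus strand. They are printed 5′ to 3′ on the gene's strand up to the base before the start, and capitals mark the motif, which reads CACATG there. Acp5 has 3 listed starts and Rgl1 has 2, and the one that holds the motif is printed. The CACGTG match among shared genes belongs to the other start of Rgl1.
Acp5: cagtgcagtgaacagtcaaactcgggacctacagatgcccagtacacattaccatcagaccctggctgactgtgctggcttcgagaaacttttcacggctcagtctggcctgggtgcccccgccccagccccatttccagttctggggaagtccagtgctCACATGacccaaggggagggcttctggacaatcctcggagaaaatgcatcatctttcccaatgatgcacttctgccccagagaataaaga
Cd9: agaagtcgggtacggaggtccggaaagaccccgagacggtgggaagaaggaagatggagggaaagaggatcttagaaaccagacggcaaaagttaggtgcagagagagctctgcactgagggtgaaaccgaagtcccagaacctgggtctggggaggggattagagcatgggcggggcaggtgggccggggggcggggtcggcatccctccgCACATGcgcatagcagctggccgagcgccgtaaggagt
Rasgef1b: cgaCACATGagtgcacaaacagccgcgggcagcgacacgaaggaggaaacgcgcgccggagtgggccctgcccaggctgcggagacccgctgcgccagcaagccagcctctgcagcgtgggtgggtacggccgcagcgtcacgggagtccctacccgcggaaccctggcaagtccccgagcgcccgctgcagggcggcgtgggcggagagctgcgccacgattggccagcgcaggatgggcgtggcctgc
Rgl1: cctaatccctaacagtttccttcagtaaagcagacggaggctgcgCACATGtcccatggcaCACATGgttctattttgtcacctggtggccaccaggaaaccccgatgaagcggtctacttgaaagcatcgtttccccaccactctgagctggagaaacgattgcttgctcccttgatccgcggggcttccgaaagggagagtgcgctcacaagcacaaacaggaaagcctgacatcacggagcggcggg
Rgl1 holds the motif at 2 places and the others at 1. Cd9, a membrane organizer of the tetraspanin family, differed by 0.51 ± 0.13 in Gr1hi cells and by 0.60 ± 0.13 in Gr1lo cells, close to the size limit of the sort. Rasgef1b and Rgl1 rose from bead-free group means below background. The other holders, Pxylp1 and Serinc4, were lower with beads, by -0.53 and -0.66 on average.

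Opposite bead differences were not called for any gene. S100a9, a subunit of the neutrophil and monocyte alarmin calprotectin, came nearest. It was at 12.18 and 12.44 in Gr1hi cells without and 11.48 and 11.19 with beads, and at 6.94 and 5.52 in Gr1lo cells without and 7.47 and 7.89 with beads. The differences of -0.97 ± 0.38 and 1.45 ± 0.38 gave a subset contrast of 2.42 ± 0.54 (adjusted p = 0.487). Both bead-free Gr1lo arrays lay below background, so the Gr1lo difference and the contrast are not measured from a level above it. Without Gr1lo array 1 without beads the contrast of S100a9 was 3.14, and without array 2 it was 1.71. Its partner S100a8 differed by -0.59 and 0.36 without a call in either subset.

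Gene lists were described by their counts and medians, beside a median subset contrast over all genes of 0.03. Over all genes, 0.148% were called higher and 0.0989% lower in Gr1hi cells, and 0.0824% higher and 0.143% lower in Gr1lo cells. Subset contrasts were above 0 for 56.4% of all genes and for 49.9% of those above background in at least 1 group. Among 28 measured classical monocyte markers, 7 were called lower in Gr1lo cells with beads and 0 in Gr1hi cells. At an unadjusted p under 0.05 limma gave 9 lower and 2 higher in Gr1hi cells (9.93% of all genes). In Gr1lo cells it gave 19 lower and 3 higher (13.2% of all genes). Most were lower with beads in both subsets: the median bead difference was -0.22 in Gr1hi and -0.57 in Gr1lo cells, with 6 and 7 of 28 above 0. The subset contrast was called lower for 3, F13a1, Chil3 and Vcan, and its median over the list was -0.29. The list's mean level was 9.83 to 10.58 on the bead-free Gr1lo arrays and 9.25 to 9.33 on the bead-carrying ones, against 11.19 to 11.46 on all Gr1hi arrays. Dendritic cell markers had 4 of 23 called lower in Gr1lo cells with beads (0.143% of all genes), 0 in Gr1hi cells, and 2 subset contrasts called lower, Cd209a and Klrd1. The lectin Clec10a, also in that list, fell by 1.47 ± 0.19 in Gr1lo cells, from 8.94 and 8.40 to 7.22 and 7.18, and Kmo by 1.35 ± 0.11 at levels below background. The median contrast of the dendritic list was -0.06, and 10 of its 23 members had a contrast above 0.

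Lipid handling genes were called higher in Gr1hi cells in 4 of 22 cases (0.148% of all genes) and in 0 cases in Gr1lo cells. Their median subset contrast was -0.19, and 3 of 22 contrasts were above 0 (56.4% of all genes). The cholesterol exporter Abca1 rose by 0.89 ± 0.12 in Gr1hi cells and differed by 0.26 ± 0.12 in Gr1lo cells, a subset contrast of -0.63 ± 0.17 (adjusted p = 0.521). Of 36 lysosomal and MiT/TFE genes, 2 were called higher in Gr1hi and 1 in Gr1lo cells, with a median contrast of -0.15, which was -0.078 without bead-free Gr1lo array 1 and -0.19 without array 2. The proton pump subunit Atp6v1a differed by 0.36 ± 0.08 in Gr1hi cells and by -0.05 ± 0.08 in Gr1lo cells. Of 28 tissue macrophage genes, 6 were called higher in Gr1lo cells and 1 in Gr1hi cells, and their median contrast was -0.01 (0.16 without bead-free Gr1lo array 1, -0.16 without array 2). The 6 were Cbr2, Adamdec1, Ms4a7, Igf1, Id3 and Clec4n, and none of the list's C1q genes was called in either subset. Missing calls do not show unchanged C1q levels, because the SE of a gene rests on its spread in all 4 groups. The SD of C1qa was 2.27 for bead-free Gr1lo arrays, but 0.083 for bead-free and 0.0064 for bead-carrying Gr1hi arrays. Gr1hi bead differences of C1qa, C1qb and C1qc were 1.36 ± 0.79, 1.38 ± 0.67 and 1.31 ± 0.75. Their Gr1lo bead differences were 0.63, 0.88 and 0.84. The carbonyl reductase Cbr2 rose by 1.43 ± 0.19 in Gr1lo cells, from below background, and differed by 0.29 ± 0.19 in Gr1hi cells. Its contrast of 1.14 ± 0.27 was not called (adjusted p = 0.487). Iron recycling genes had 2 of 20 called higher in each subset, Slc40a1 and Spic, and 1 called contrast, Slc40a1, while haptoglobin (Hp) fell by 0.74 ± 0.11 in Gr1lo cells.

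Interferon-stimulated genes mostly had positive contrasts. Of 36 measured, 0 had a bead difference above 0 in Gr1hi cells, where 1, Ifitm1, was called lower and the median was -0.36, while 12 were above 0 in Gr1lo cells and the median was -0.06. The subset contrast was above 0 for 31 of 36 (10257 of 18193 genes overall), with a median of 0.28 (0.42 without bead-free Gr1lo array 1, 0.16 without array 2) and 0 calls, and limma gave 6 at an unadjusted p under 0.05. The antiviral enzyme-like protein Oasl1 differed by -0.34 ± 0.12 in Gr1hi cells and by 0.21 ± 0.12 in Gr1lo cells. Immunity-related GTPases had a median contrast of 0.26, which was 0.40 without bead-free Gr1lo array 1 and 0.084 without array 2, with Irgm2 at 0.67 ± 0.26.

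Genes of the respiratory chain and of the cytosolic ribosome had small negative contrasts, 3 of 40 above 0 (median -0.16) and 1 of 24 above 0 (median -0.11), with 0 calls in both. At an unadjusted p under 0.05 limma gave 6 and 4 lower (3.31% of all genes). Cox4i1, a subunit of cytochrome oxidase, differed by 0.11 ± 0.08 in Gr1hi cells and by -0.26 ± 0.08 in Gr1lo cells, and the ribosomal protein gene Rpl37 by 0.16 ± 0.08 and -0.28 ± 0.08. Antigen presentation genes of class II had a median contrast of -0.29, but it was -0.033 without bead-free Gr1lo array 1 and -0.52 without array 2, with the invariant chain Cd74 at -0.75 ± 0.25 (adjusted p = 0.58). Cell cycle genes had a median of -0.26, which likewise rested on array 1, at -0.050 without it and -0.44 without array 2. Cdk1 differed by 0.51 ± 0.15 in Gr1hi cells and by -0.24 ± 0.15 in Gr1lo cells. Cox4i1, Rpl37, Cd74 and Cdk1 were not called in either subset. Neutrophil markers had a median contrast of 0.25, with 2 of 20 called lower in Gr1hi cells (Mmp9 and Mpo) and 2 in Gr1lo cells (Mmp8 and Cd177). Their mean level was 8.67 to 8.72 on bead-free and 8.09 to 8.31 on bead-carrying Gr1hi arrays, and their part in the contrasts was not tested.

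**Figure D5:**
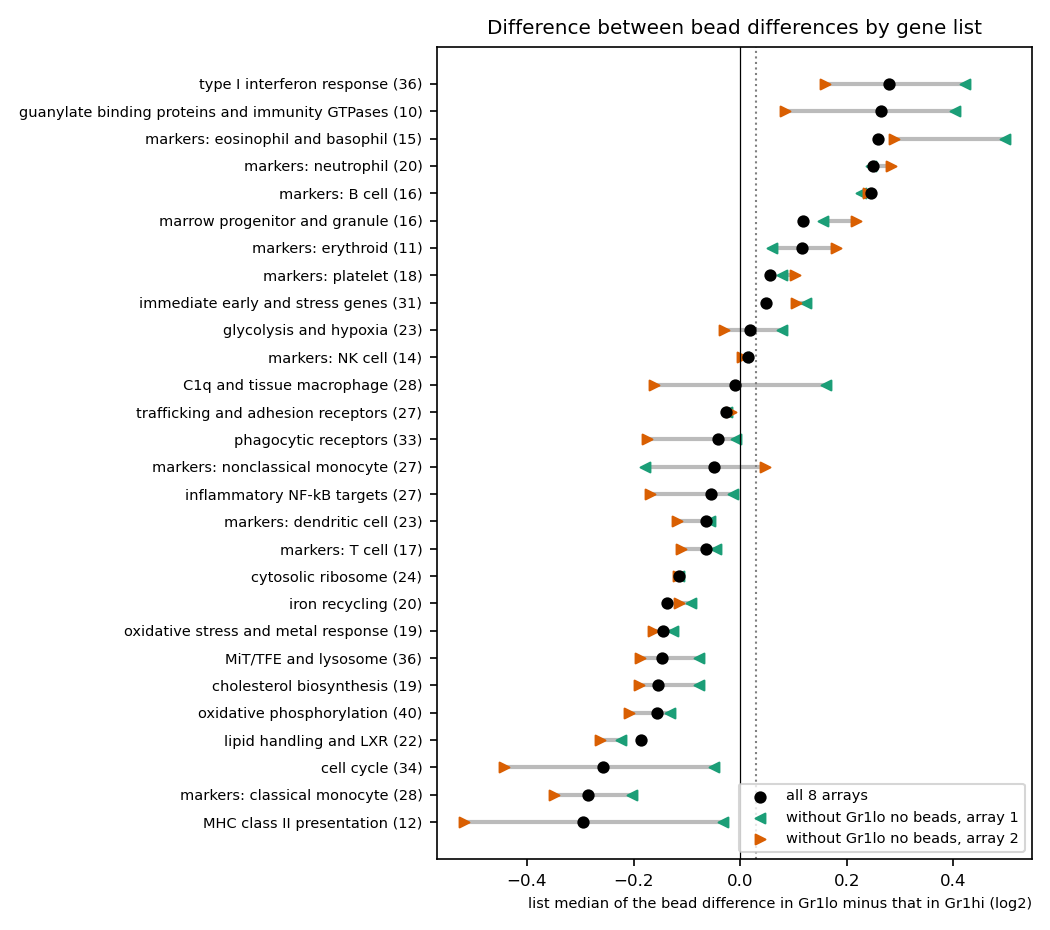
Median over each gene list of the bead difference in Gr1lo minus that in Gr1hi cells (log2), with all 8 arrays (circles) and without either bead-free Gr1lo array (triangles); the number of measured genes is in brackets and the dotted line is the median of all genes. Interferon genes stay above 0 and classical markers below 0 under all 3 settings, while C1q and tissue macrophage genes lie on both sides. Without array 1 the medians of class II presentation and cell cycle genes are -0.033 and -0.050, close to 0.

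The bead-free Gr1lo arrays differed from each other more than the arrays of any other group, which bears on every subset contrast. They differed by more than 1 log2 unit in 153 genes, against 22, 19 and 8 genes in the Gr1hi bead-free, Gr1hi bead-carrying and Gr1lo bead-carrying pairs. Among the widest gaps was Prg4, the lubricin of serous membranes and joints, at 12.11 on array 1, 6.45 on array 2 and 5.41 to 6.86 on the other arrays. Alox15, Selp, Saa3, Slpi and Serpinb2, which resident macrophages of the peritoneal cavity express, were also higher on array 1. A list of 26 genes known from those macrophages was drawn up after these values were seen, and it carries no test. Of its 24 measured genes, 20 were highest on array 1 of the bead-free Gr1lo group, and 19 were higher there than on array 2 by more than 1 log2 unit. Their mean was 9.44 on that array, 6.77 on array 2, 6.58 and 6.41 on the bead-carrying Gr1lo arrays and 7.35 to 7.53 on the Gr1hi arrays. Gata6, the transcription factor that defines those macrophages, was at 6.52 on array 1 and 5.87 on array 2, both below background, and Timd4, another of their surface markers, was at 7.13 and 5.04.

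The subset contrasts of this list moved with the array, which carries no weight because the list was drawn up with the array values known. Their median was -1.48 with both arrays, 0.02 without array 1 and -3.35 without array 2. The complement genes C1qa and C1qb were also higher on array 1, at 11.37 and 12.06 against 8.16 and 9.37 on array 2, and between 10.13 and 10.66 (C1qa) and between 11.32 and 11.87 (C1qb) on bead-carrying Gr1lo arrays. Without array 2, C1qa had opposite bead differences, 1.36 in Gr1hi and -0.98 in Gr1lo cells, and 12 genes in all were sorted as opposite.

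The called falls in Gr1lo cells were seen against either bead-free array. Without array 1 of that group the subset contrasts of Cd209a, F13a1, Klrd1, Chil3 and Vcan were -3.04, -2.49, -2.22, -1.44 and -2.20, with adjusted p of 0.000654, 0.00178, 0.00371, 0.00976 and 0.00178. Without array 2 they were -3.38, -2.93, -1.98, -1.36 and -2.72, and were called as well. Fabp5, Ms4a2 and Slc40a1 were not called without array 1 (adjusted p = 0.0616, 0.0637 and 0.0915), at contrasts of -1.34, 1.19 and 1.70.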

How the data were processed

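Expression was measured on 8 Affymetrix mouse arrays of sorted blood monocytes, 4 groups of 2. The authors deposited log2 expression values for 45101 probe sets, normalised by RMA per the submitters' processing notes, which also name limma without a version. They were used unchanged and raw scans were not reprocessed. RMA gives all arrays 1 distribution, so a change common to most genes could not appear.

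Kept were 34945 probe sets with 1 symbol (34741 matched to RefSeq GRCm38.p6, 0 symbols changed); 932 with several, 9160 with none listed and 64 controls were not. For 9010 of 18193 genes the brightest of several probe sets was chosen. The background level of 6.98 is the 95th percentile of mean levels among 115 receptor genes for smell, pheromones and taste and keratin-associated genes.

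Models with 4 group means were fitted with lmFit and eBayes in limma 3.58.1 (R 4.3.3; prior degrees of freedom 4.48, residual 4) and adjusted by Benjamini-Hochberg over all genes. A call is an adjusted p under 0.05, two-sided, and SE the moderated standard error.

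Named genes were, per pattern, the 10 above background with the largest contrast (for shared genes, the largest average) without predicted genes, 2 per gene list by unadjusted p, and label checks. Spic, Gpnmb, Cd9, Pxylp1, Serinc4, Mcpt8, Cpa3, Kmo, Clec10a, S100a8, Mmp14, Clec4n, Ifit2, Pparg, Cx3cr1, Ikzf3, S1pr5, Ms4a7, the C1q genes and the peritoneal genes were named after their values were seen. The members and lists were chosen with earlier results of these data known. Alternatives were the genes tested, probe set rule, variance moderation, array weights, scaling, replicate blocks, pattern limits and leaving out each array. Software was pandas 2.3.3 (Python 3.11.15) and matplotlib 3.10.9.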

Additional observations from a re-analysis of the deposited data

Results flagged for a closer look

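The subset contrast, the bead difference in Gr1lo minus that in Gr1hi cells, was called in limma for 8 genes. It was -3.21 for Cd209a, -2.71 for F13a1, -2.46 for Vcan, -2.10 for Klrd1, -1.44 for Fabp5, -1.40 for Chil3, 1.14 for Ms4a2 and 1.78 for Slc40a1, which singles them out as genes whose bead difference differed between groups.

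Control probe sets, which hold no monocyte transcript, were higher with beads: the poly-A controls by 1.60 and the hybridization controls by 0.63, averaged over the subsets. Every bead-carrying array lay above every bead-free array of its subset in both (exact permutation p = 0.0556, the smallest that 36 assignments can give). Their part in the gene values was not tested.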

How the results depend on the processing

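The count of called subset contrasts, 8 as reported, was 5 with the mean of all probe sets, 13 probe sets (12 genes) with every probe set and 17 with trend and robust moderation, and 6 to 10 with genes above background, array weights, other scaling or replicate blocks. Calls of the bead difference in Gr1hi (45), in Gr1lo (41) and on average (139) became 68, 50 and 219 probe sets (the last 190 genes) with every probe set, 121, 127 and 326 with trend and robust moderation, and 104 in Gr1hi with array weights. Gr1hi-only genes (2) were 1 with genes above background, the mean of probe sets, array-median centring, cyclic loess or a size limit of 1, 8 with trend and robust moderation (Gr1lo-only 7), and 4 at an adjusted p under 0.1. Unequal genes (2) were 1 with genes above background, cyclic loess, both replicate blocks or a size limit of 1, and 0 with the mean of probe sets. With a size limit of 1, 2 genes were shared.

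The deviations of same-numbered arrays from their group means were correlated over all genes between groups. The correlation was 0.36 and 0.273 between the bead groups of Gr1hi and of Gr1lo cells, and -0.02 to 0.085 across subsets. Nothing in the labels ties the numbers to animals or days, so pairing was not settled. With the replicate block 10 contrasts were called, 6 of them among the 8 (not Slc40a1 and Ms4a2, adjusted p = 0.0669 and 0.0594), and 1 gene was opposite, Ifit2 (-0.71 and 0.67). With a replicate block within each subset 10 contrasts (again without Slc40a1 and Ms4a2, adjusted p of 0.0916 for both), 102 and 106 bead differences in Gr1hi and Gr1lo cells and 332 on average were called, and 1 gene was opposite.

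Leaving out 1 array gave 1 to 167 called contrasts, 0 to 58 calls in Gr1hi, 17 to 354 in Gr1lo, 29 to 428 on average, 10 to 31 shared, 0 to 11 Gr1hi-only, 1 to 131 Gr1lo-only, 0 to 12 opposite and 0 to 12 unequal genes. The group left with 1 array was assumed to vary like the others. Contrasts of some shared genes, all near 0 and uncalled, changed sign in these fits, with ranges of -0.10 to 0.46 for Gbp8, -0.068 to 0.37 for Snx24, -0.34 to 0.14 for Rasgef1b, -0.24 to 0.18 for Acp5 and -0.42 to 0.11 for Rgl1. Scaling moved the median contrast of all genes from 0.03 to 0.0035 with centring and 0.01 with cyclic loess. The cause of these shifts was not tested. The smallest called contrast was 1.14 in size.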
